A study of Mus musculus with 16 samples.

Results

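The glucocorticoid receptor gene and 9 genes known to respond to glucocorticoids were followed through 16 ChIP-seq libraries of 3T3-L1 cells, a mouse preadipocyte line that turns into fat cells after hormonal induction. The 10 genes, of 22367 protein-coding genes in the annotation, were Nr3c1, Fkbp5, Per1, Zbtb16, Sgk1, Dusp1, Glul, Mt1, Mt2 and Hsd11b1. They were chosen by name, with earlier results of these data known. An island is a stretch of the genome called as enriched. Every island that overlapped the gene body or the 50 kb on either side of it was taken, on mm9 coordinates. The 10 windows held 942 different islands over the 16 lists.

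H3K27ac, an acetylation of histone H3 found at active promoters and enhancers, had been measured at 0 h and 48 h of differentiation in preadipocytes carrying either the empty retroviral vector or a vector for V5-tagged SETD5, with 2 biological replicates (A and B) in each of the 4 groups. SETD5, a SET-domain protein, had been immunoprecipitated through its V5 tag at 0 h and 6 h in 2 replicates, and through an antibody to the endogenous protein at 0 h and 6 h in 1 library each. H3K4me1, a methylation found at enhancers, had 1 library at 0 h and 1 at 48 h. The transgene was driven by the weak LTR promoter of a pMXs retrovirus in drug-selected cells, so these cells held the tagged protein beside their own SETD5. The virus field of the labels names no virus for replicate A of the SETD5-V5 libraries and for endogenous SETD5, and names the SETD5 virus for H3K4me1. Differentiation was started with MDI, a mix of 0.25 µM dexamethasone, 0.5 mM isobutylmethylxanthine and 1 µg/ml insulin, so every sample after 0 h had received a synthetic glucocorticoid together with the other agents, and the responses to the single agents cannot be told apart.

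The glucocorticoid receptor, the product of Nr3c1, is held in the cytoplasm by heat shock proteins and immunophilins until hormone binds it. It then enters the nucleus, recruits acetyltransferases or corepressors, and binds as a dimer to response elements made of inverted half-sites with a spacer of 3 bases. Its classical targets damp or extend the signal. Fkbp5 encodes an immunophilin that lowers the receptor's affinity for hormone, Dusp1 a phosphatase that switches off MAP kinases, and Per1 a repressor of the circadian clock. Sgk1 encodes a kinase that acts on ion transport, Zbtb16 a zinc finger transcription factor, Glul glutamine synthetase, and Mt1 and Mt2 metallothioneins that bind zinc. Hsd11b1 encodes the enzyme that regenerates active glucocorticoid from its inactive form inside fat cells. Dexamethasone is the part of the adipogenic mix that engages this receptor.

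Exact matches to the response element were sought in the reference genome as 2 sets of letters on both strands, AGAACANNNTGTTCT and the looser GNACANNNTGTNC, which contains every match of the first. The first was found 639 times in the genome and in 3.2% of the windows of all protein-coding genes, drawn in the same way. Fkbp5 and Sgk1 held it, Fkbp5 at 2 places. The 3 matches are shown because the islands of SETD5 and H3K27ac are described on them, in forward orientation of mm9 with 12 bases on either side and the match in capitals. All lie in introns.
Fkbp5, chr17:28557254-28557292: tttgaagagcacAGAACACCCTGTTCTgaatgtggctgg
Fkbp5, chr17:28579352-28579390: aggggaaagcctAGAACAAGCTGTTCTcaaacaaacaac
Sgk1, chr10:21713495-21713533: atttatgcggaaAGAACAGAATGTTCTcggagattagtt

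The looser letters occurred in all 10 windows and in 87.5% of the windows of all protein-coding genes, so their presence alone did not set the 10 genes apart. Per 100 kb of window the median was 2.97 matches for the 10 genes and 1.70 for all protein-coding genes, and 9 of the 10 were above the latter. Counted once for the shared Mt1 and Mt2 stretch, there were 52 looser matches, including the 3 above, of which Fkbp5 held 14, Zbtb16 8 and Per1 7. A selection is shown, of matches close to the 5' end of a gene or, for Zbtb16, Sgk1 and Hsd11b1, in H3K27ac of empty-vector cells at 48 h and not at 0 h.
Per1 intron, chr11:68910567-68910603: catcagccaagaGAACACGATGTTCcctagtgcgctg
Per1 intron, chr11:68912907-68912943: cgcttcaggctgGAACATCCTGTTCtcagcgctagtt
Fkbp5 upstream, chr17:28655113-28655149: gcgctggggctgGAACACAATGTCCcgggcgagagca
Zbtb16 intron, chr9:48583918-48583954: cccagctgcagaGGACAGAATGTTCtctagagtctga
Sgk1 intron, chr10:21672486-21672522: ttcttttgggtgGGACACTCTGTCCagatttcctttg
Glul intron, chr1:155748744-155748780: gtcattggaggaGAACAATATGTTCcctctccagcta
Mt1 upstream, chr8:96698580-96698616: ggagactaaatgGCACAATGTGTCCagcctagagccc
Mt1 upstream, chr8:96702883-96702919: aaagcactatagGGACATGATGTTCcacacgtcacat
Hsd11b1 window, Lamb3 intron, chr1:195137090-195137126: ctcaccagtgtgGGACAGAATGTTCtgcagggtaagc

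The lists gave each island's position and a score, and no read counts, so the quantity compared was the length of a window covered by islands, in kb. The 8 H3K27ac lists held 31292 to 39949 islands over 103 to 122 Mb. The 4 SETD5-V5 lists were less alike, with 6666 to 35573 islands over 35.3 to 196 Mb, and the 2 endogenous SETD5 lists held 2132 and 3293. Start sites of 7 of 8 preadipocyte and fibroblast markers had an H3K27ac island in both replicates of all 4 H3K27ac groups. Of 7 adipocyte markers, 3 had one at 0 h with either vector, 7 and 6 at 48 h in the empty-vector replicates, and 5 in each SETD5 replicate at 48 h, among them Pparg, Cebpa, Fabp4, Plin1 and Lpl in both. No leukocyte, endothelial, muscle or liver marker had one, and of the epithelial markers Krt8 had one, in the empty-vector cells at 48 h. In such bulk libraries, fewer cells with a mark and less of the mark in each cell cannot be told apart. With 2 libraries against 2, the smallest p of a two-sided exact permutation test was 0.333, so no gene could pass 0.05 by it, and no gene was tested singly. A gene was called where both libraries of a group lay above both of the other. No island in a list means that a stretch stayed below the caller's threshold, not that it had no signal.

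In empty-vector cells, H3K27ac covered more of the window at 48 h than at 0 h at 8 of the 10 genes, all but Nr3c1 and Sgk1. Over all protein-coding genes with an H3K27ac island, the same call was made for 40.1%. The median difference was 20.8 kb for the 10 genes and 0.7 kb for all genes tested. The genes were not independent in this count, since Mt1 and Mt2 lie 6.47 kb apart and share 93.3% of their windows. Only Nr3c1 was called lower, against 23.3% of all genes.

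**Figure D1:**
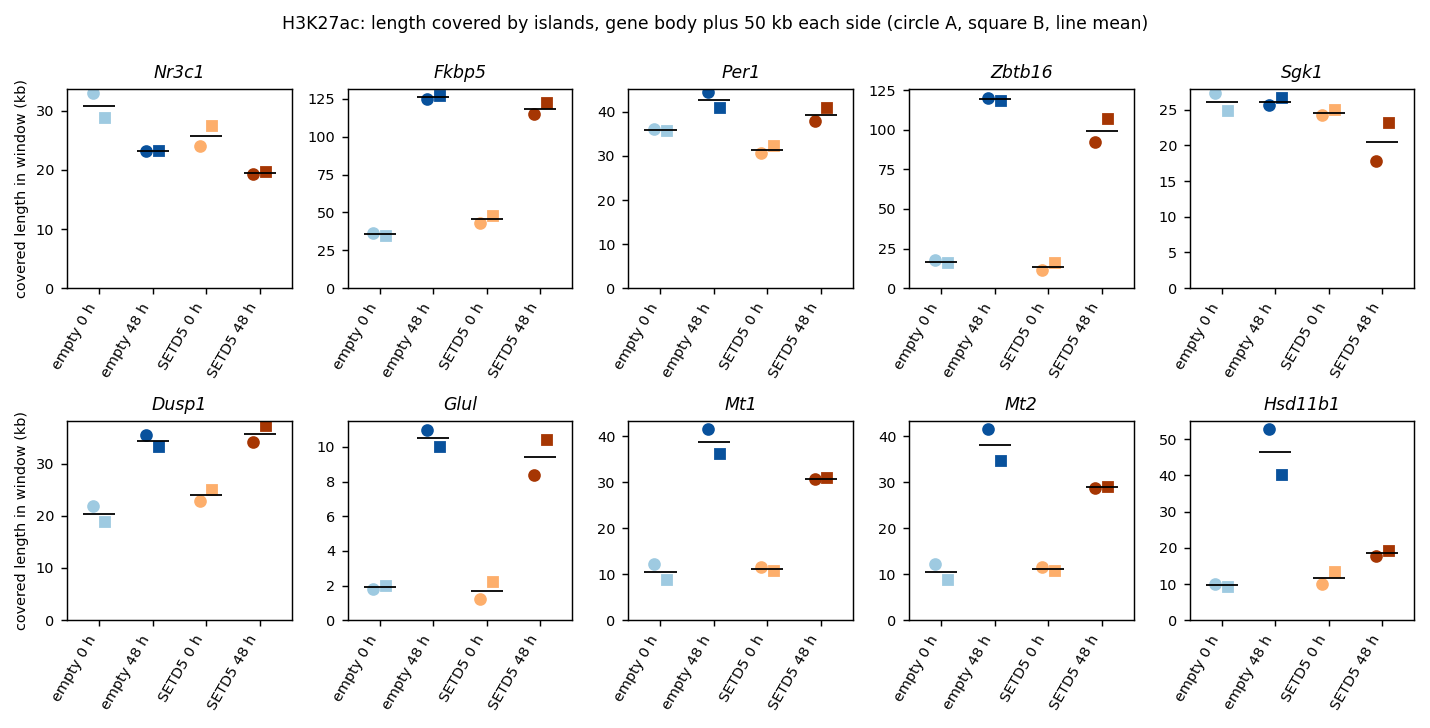
Length covered by H3K27ac islands (kb, vertical axis, 1 scale per gene) in the window of each of the 10 genes, for empty-vector and SETD5 cells at 0 h and 48 h. Circles are replicate A, squares replicate B and lines the means. Fkbp5 and Zbtb16 lie between 92 and 127 kb in all 4 libraries at 48 h, and Hsd11b1 lies at 52.8 and 40.2 kb in empty-vector cells against 17.8 and 19.2 kb in SETD5 cells.

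Zbtb16 (chr9:48462416-48644050, minus strand) had the largest gain of the 10. Its window of 282 kb had 18 and 15.6 kb of H3K27ac at 0 h in replicates A and B of empty-vector cells. At 48 h it had 120.2 and 118.2 kb, and of all genes tested 0.0392% had a larger difference of the means. The cover was 119 ± 1.41 kb at 48 h against 16.8 ± 1.70 kb at 0 h (SD, n = 2), a ratio of 7.10. The number of islands went from 5 and 4 to 14 and 14, and most of the added length lay in the gene body, where the longest islands at 48 h ran over 35.2 kb in replicate A and 50.8 kb in replicate B. Of all islands in those lists, 0.137% and 0.0936% had a higher score. An induced region, defined as a merged stretch with an island in both empty-vector libraries at 48 h and in none at 0 h, was found 6 times in the window. The longest of these, chr9:48512801-48526800, was 14 kb long and lay in the gene body, 117 to 131 kb downstream of the 5' end.

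Fkbp5 (chr17:28536040-28654469, minus strand) gained nearly as much. Its window of 218 kb had 36.4 and 34.6 kb of H3K27ac at 0 h and 125 and 127 kb at 48 h in empty-vector cells, 35.5 ± 1.27 and 126 ± 1.27 kb as means (SD, n = 2). The 0 h and 48 h values were 3.55-fold apart, and 0.056% of all genes had a larger difference. Unlike at Zbtb16, the number of islands did not go up. It was 12 and 17 at 0 h and 12 and 13 at 48 h, and the separate islands of 0 h were joined into long ones of up to 39.4 and 30.6 kb. The match at chr17:28557254-28557292 lay in an H3K27ac island in all 8 libraries. The match at chr17:28579352-28579390 lay in one at 48 h in all 4 libraries and at 0 h in none of 4.

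**Figure D2:**
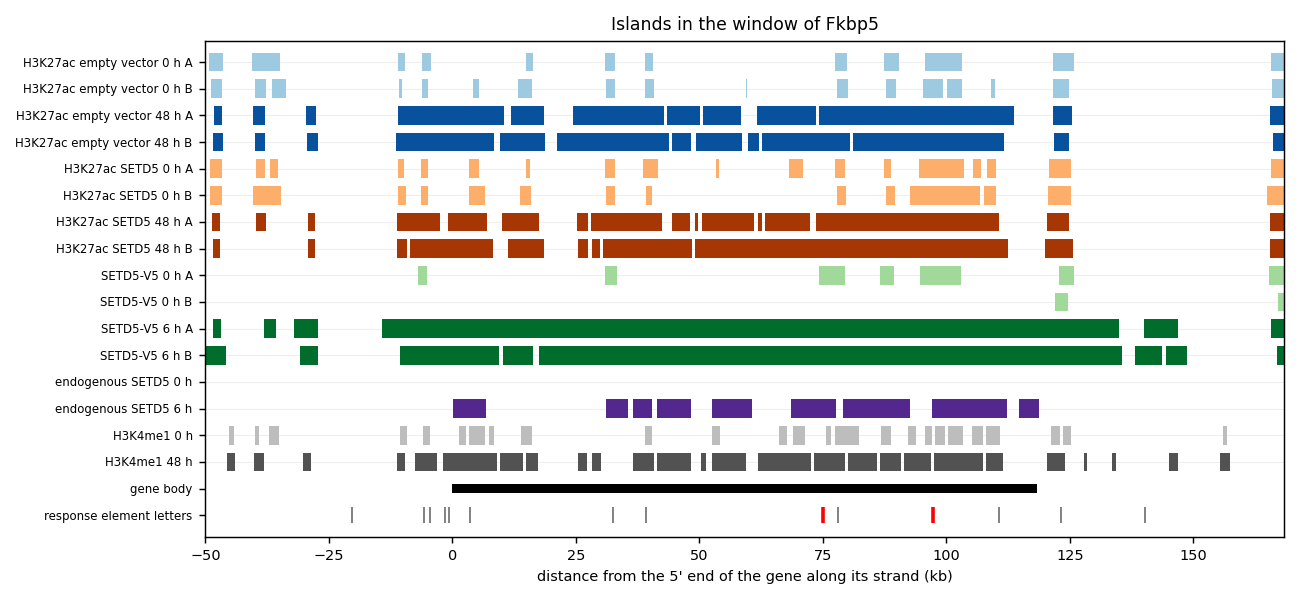
Islands of all 16 lists in the Fkbp5 window, drawn to scale by distance (kb) from the 5' end of the gene. Each row is 1 library, the black bar is the gene body, red ticks are the 2 matches of the 15 letters and grey ticks the looser ones. Short islands at 0 h stand against nearly continuous H3K27ac at 48 h and SETD5-V5 islands of 149 and 118 kb at 6 h.

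The metallothionein pair and Hsd11b1 followed. Mt1 (chr8:96702989-96704225, plus strand) had 12.2 and 8.8 kb of H3K27ac at 0 h and 41.6 and 36 kb at 48 h in empty-vector cells, a ratio of 3.70, and Mt2 (chr8:96696518-96697467, plus strand) shared nearly all of it. Their windows held 4 induced regions, the longest being chr8:96655801-96666000, upstream of both genes. This neighbourhood also holds Mt3, Mt4 and Nup93.

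Hsd11b1 (chr1:195047824-195090248, minus strand) had 10.0 and 9.2 kb at 0 h and 52.8 and 40.2 kb at 48 h in empty-vector cells, a ratio of 4.85. The spread between its replicates at 48 h, 8.93 kb (SD, n = 2), was the widest of the 10 genes in that group. Of its 2 induced regions the longer, chr1:195097401-195107200, lay upstream of the gene and ran over G0s2, a regulator of lipolysis. The match in the Lamb3 intron lay in H3K27ac islands of 10.6 and 4.4 kb at 48 h in empty-vector cells, of 1.8 and 1 kb in SETD5 cells at 48 h, and in none at 0 h. The window holds 5 other coding genes, so the cover cannot be assigned to Hsd11b1 alone. A 0.4-kb stretch of an Hsd11b1 intron, chr1:195053801-195054200, lay in an island in all 16 lists, and was itself the whole island in 8 of them.

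Glul (chr1:155747074-155756853, plus strand) started from the least cover of the 10 genes per length of window, 1.64% and 1.82% at 0 h in empty-vector cells, in a single island of 1.8 and 2.0 kb. At 48 h it had 11 and 10.0 kb in 3 islands each. The island at its start site moved from the weaker part of its list to the stronger part. Of all islands, 83.0% and 89.5% had a higher score than it at 0 h, and 2.55% and 2.44% at 48 h. The match of the looser letters in its intron, chr1:155748744-155748780, lay in an H3K27ac island in all 4 libraries at 48 h and in none at 0 h.

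Dusp1 (chr17:26642535-26645464, minus strand) had 21.8 and 18.8 kb at 0 h and 35.4 and 33.2 kb at 48 h in empty-vector cells, a ratio of 1.69. Per1 (chr11:68908719-68923462, plus strand) had the smallest called gain in proportion, from 36.2 and 35.6 kb to 44.5 and 40.8 kb, a ratio of 1.19. Both genes already had strong start-site islands at 0 h, where 1.36% and 1.03% of islands scored higher than that of Per1 and 4.42% and 7.17% higher than that of Dusp1.

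The window of the receptor gene went the other way. Nr3c1 (chr18:39570199-39650955, minus strand) had 33.0 and 28.8 kb of H3K27ac at 0 h and 23.2 and 23.2 kb at 48 h in empty-vector cells, a difference of means of -7.70 kb, and 6.16% of all genes had a lower one. With the gene body and 10 kb on either side, the mean was 0.5 kb higher at 48 h and the gene was not called lower. Of its 3 regions lost by 48 h, 1 lay in the gene body and 2 outside it, within Arhgap26. Its start-site island was kept in all 8 H3K27ac libraries, 5.4 to 13.6 kb long, and was longer at 48 h. In empty-vector cells it was 7.4 and 9.4 kb at 0 h and 13.6 and 13 kb at 48 h. In SETD5 cells it was 5.4 and 6.6 kb and then 13 and 12.8 kb. Its rank did not rise, with 0.656% and 0.891% of islands above it at 0 h and 1.51% and 1.68% at 48 h in empty-vector cells. Sgk1 (chr10:21601990-21719709, plus strand) had 27.4 and 24.8 kb at 0 h and 25.6 and 26.6 kb at 48 h. Its groups overlapped, with equal means of 26.1 kb.

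In SETD5-transduced cells the same 8 genes were called higher at 48 h than at 0 h, against 31.9% of all genes, and Nr3c1 and Sgk1 were called lower, against 30.6%. The median difference was 9.88 kb for the 10 genes and 0 kb for all genes. Zbtb16 went from 11.6 and 15.6 kb to 92.0 and 107 kb, a gain of 85.9 kb in the mean where empty-vector cells had 102 kb. Fkbp5 went from 43.2 and 47.8 kb to 115 and 122 kb, a gain of 73.1 kb against 90.4 kb. These gains were 83.9% (Zbtb16) and 80.9% (Fkbp5) of those with the empty vector.

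Hsd11b1 differed from them. In SETD5 cells it had 10 and 13.2 kb at 0 h and 17.8 and 19.2 kb at 48 h, so the mean gain was 6.88 kb, or 18.6% of the gain in empty-vector cells. For the other genes called higher with both vectors this share ran from 64.5% at Mt2 and 69.3% at Mt1 to 118% at Per1. The difference between the gains was not tested. For Dusp1 the gain was 11.8 kb against 14.0 kb, and for Glul 7.7 kb against 8.6 kb.

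Set side by side at 48 h, H3K27ac islands covered less in SETD5 cells than in empty-vector cells at 7 of the 10 genes, against 33.4% of all genes. They covered more at 0 of the 10, against 22.6%. The median difference was -6.45 kb for the 10 genes and -0.4 kb for all genes. The 7 were Nr3c1, Fkbp5, Zbtb16, Sgk1, Mt1, Mt2 and Hsd11b1, of which Hsd11b1 alone passed 1.5-fold between the means, against 13.4% of all genes. Among these, Hsd11b1 stood at 46.5 ± 8.93 kb with the empty vector and 18.5 ± 0.990 kb with SETD5 (SD, n = 2), a difference of -28.0 kb, and 0.288% of all genes had a lower one. Zbtb16 followed with -19.7 kb. At Fkbp5 the difference of -7.3 kb was a small part of the total, 119 ± 5.37 against 126 ± 1.27 kb (SD, n = 2), and it was no longer called when cover was divided by the total of each list. At Nr3c1 the direction turned with the islands used, to 2 kb higher in SETD5 cells among islands above the median score. The rank of the highest-scoring island did not always follow cover. At Fkbp5 0.399% and 0.383% of islands were above it with the empty vector and 0.146% and 0.129% with SETD5. Ranks were also higher with SETD5 at Sgk1 and Nr3c1, overlapped at Zbtb16, and were lower at Mt1, Mt2 and Hsd11b1. The SETD5 lists at 48 h held more islands, 39068 and 39451 against 31292 and 33131.

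At 0 h the vectors differed less. Fkbp5 and Dusp1 had more H3K27ac cover in SETD5 cells than in empty-vector cells, 2 of 10 genes against 25.1% of all genes. Nr3c1 and Per1 had less, 2 of 10 against 14.3%. The largest of these differences was 10.0 kb, at Fkbp5. Zbtb16, Sgk1, Glul, Mt1, Mt2 and Hsd11b1 overlapped between the vectors at 0 h. None of the 10 passed 1.5-fold, where 8.93% of all genes were higher and 4.51% lower by that measure. The comparisons over time and between vectors share libraries, so their calls are not independent of each other.

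The bases gained in empty-vector cells were then followed in the other lists. A base was gained where both replicates had an island at 48 h and neither had one at 0 h. Of 82.6 kb gained at Fkbp5, 84.7% lay in H3K27ac islands of both SETD5 libraries at 48 h, and of 89 kb gained at Zbtb16 67% did. Over the genome the share was 50.8%. Dusp1 kept 84% of 10.0 kb, Mt1 and Mt2 66% of 21.2 kb, and Glul 64.9% of 7.4 kb. At Hsd11b1 15% of 26.6 kb lay in islands of both SETD5 libraries and 67.7% in neither, where the genome had 30.8% in neither. Per1, Sgk1 and Nr3c1 gained 3 to 4.8 kb each, of which 33.3%, 13.6% and 54.2% lay in both SETD5 libraries.

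**Figure D3:**
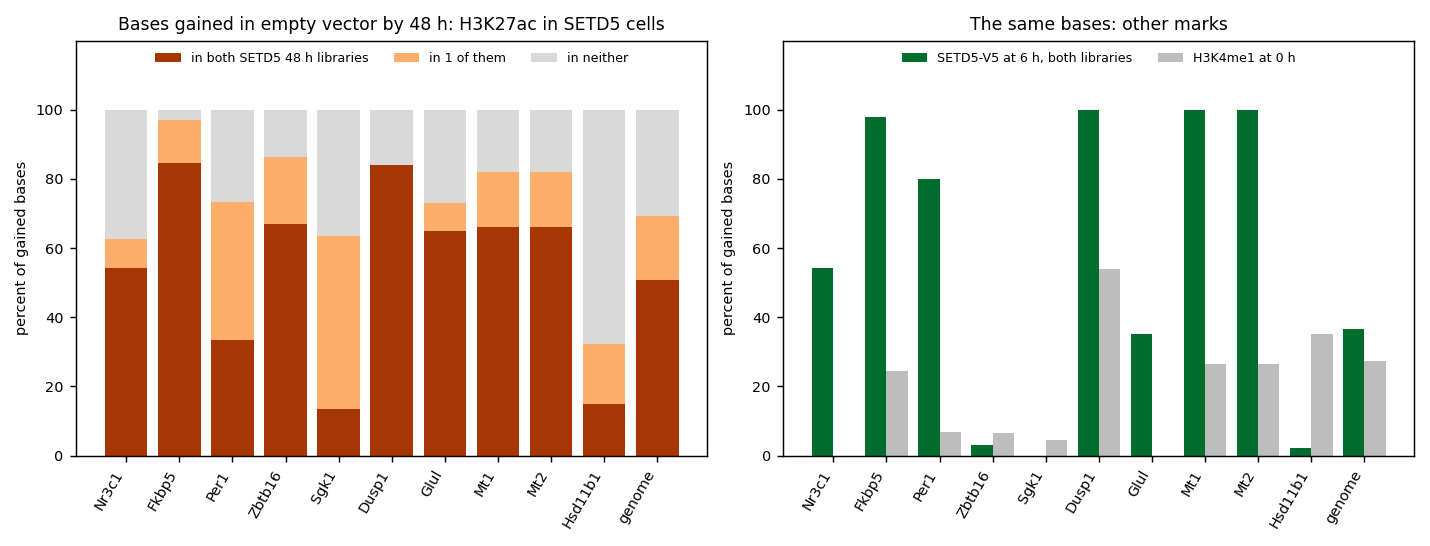
Bases that carried H3K27ac in both empty-vector libraries at 48 h and in neither at 0 h, per gene and for the genome. The left panel gives the percent that lay in H3K27ac islands of both, 1 or neither SETD5 library at 48 h, and the right panel the percent in islands of both SETD5-V5 libraries at 6 h (green) and of H3K4me1 at 0 h (grey). Hsd11b1 has 15% in both SETD5 libraries, while Zbtb16 has 2.92% and Hsd11b1 2.26% under SETD5-V5.

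The merged regions of the 8 H3K27ac lists were counted in the same way. The 10 windows held 76 regions, of which 22, or 28.9%, were induced, against 11% of 53156 regions of the genome. Of the 22, 16 were present in both SETD5 libraries at 48 h, or 72.7% against 64.4% of induced regions of the genome, and 4 in neither, or 18.2% against 24.2%. All 6 at Zbtb16 and all 4 at the metallothionein pair were in both, and none of the 2 at Hsd11b1 was. Regions lost by 48 h numbered 6 in the windows, or 7.89%, against 14.1% in the genome. Nr3c1 had 3 of these and Sgk1 2. The longest at Nr3c1 was chr18:39513201-39522800, across the outer edge of its window. It was present in both SETD5 libraries at 48 h.

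**Figure D4:**
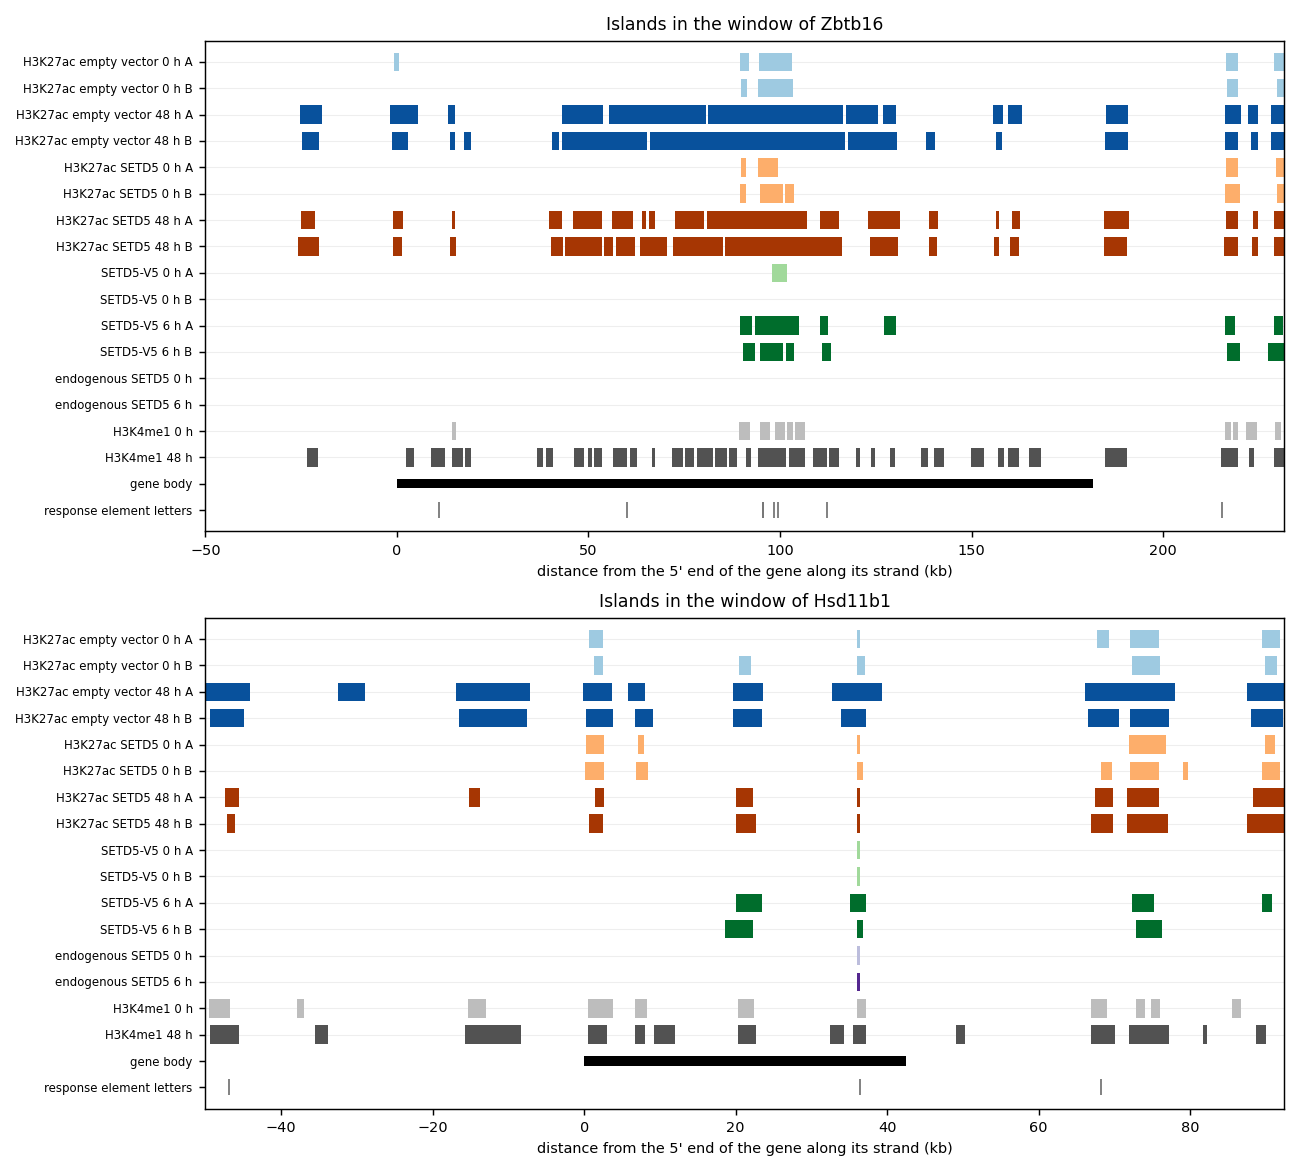
Islands of all 16 lists in the windows of Zbtb16 and Hsd11b1, drawn to scale by distance (kb) from the 5' end of each gene, with 1 library per row, the gene body in black and matches of the looser response element letters as ticks. Zbtb16 has long H3K27ac islands with either vector at 48 h and few SETD5-V5 islands. At Hsd11b1 the upstream stretch seen in both empty-vector libraries at 48 h is short or missing in SETD5 cells.

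At transcription start sites, taken as 1000 bp before to 100 bp after any annotated start, all 10 genes had an H3K27ac island in each of the 4 libraries at 48 h. At 0 h Zbtb16 had one in replicate A of empty-vector cells alone, a 1.2-kb island below 95.1% of the others in score. Hsd11b1 lacked one in replicate A with either vector. Over all protein-coding genes, 46.7% to 49.5% had such an island, and this share hardly moved between the libraries. At 48 h the start-site island of Zbtb16 was 7.2 and 4.2 kb long in empty-vector cells and 2.8 and 2.6 kb in SETD5 cells. That of Fkbp5 was among the top of each list at 48 h, with 0.129% to 0.399% of islands above it, where 53.1% to 79.6% had been above it at 0 h. Fkbp5 has 5 annotated starts, and the start-site island of highest score at 48 h lay in the gene body and over another start than that at 0 h.

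SETD5-V5 had more cover at 6 h than at 0 h at 9 of the 10 genes, all but Nr3c1, while 56.4% of all genes with a SETD5-V5 island were called higher. No member was called lower, against 1.31%. The median difference was 30.3 kb for the 10 genes and 7.6 kb for all genes. The lists at 6 h were longer than those at 0 h, and as a share of all cover in its list 6 of the 10 genes were called higher, Fkbp5, Per1, Zbtb16, Glul, Mt1 and Hsd11b1, against 34.5% of all genes. On that scale 2 were lower, Nr3c1 and Sgk1, against 16.7%. Fkbp5 had 26.8 and 4.0 kb at 0 h in replicates A and B and 168 and 163 kb at 6 h. Most of the latter was in 1 island of 149 kb in replicate A, chr17:28519601-28668800, and 1 of 118 kb in replicate B, chr17:28519001-28637000. Of all islands in those lists, 0.0562% and 0.0918% had a higher score.

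Dusp1 and the metallothionein pair were the next in size of gain. Dusp1 had 35.6 and 15.2 kb of SETD5-V5 at 0 h and 76.1 and 69.9 kb at 6 h. Mt1 had 30.6 and 4.4 kb and then 71.4 and 72 kb. Per1 had 21.2 and 0 kb and then 58.1 and 43 kb, with an island over the gene of 29 and 27.4 kb. At 0 h replicate B lay below replicate A at all of these. All 9 genes were also 1.5-fold higher within each replicate, as were 77.6% of all genes in replicate A and 86.8% in replicate B.

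Zbtb16, Glul, Sgk1 and Hsd11b1 gained less. Zbtb16 had 24.4 and 20.8 kb after 4.0 and 0 kb, none of it at its start site. Glul had 16.8 and 12.2 kb after 1.4 and 0 kb. Hsd11b1 had 10.0 and 7.8 kb after 0.4 and 0.4 kb, the latter being the 0.4-kb stretch found in every list. Sgk1 had 36.4 and 32.4 kb after 19 and 14.2 kb, and as a share of all cover in its list it was lower at 6 h in both replicates. Nr3c1 had 50.6 and 22.6 kb at 0 h and 36.4 and 27.8 kb at 6 h, with overlapping groups, and it too was lower as a share of its list.

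**Figure D5:**
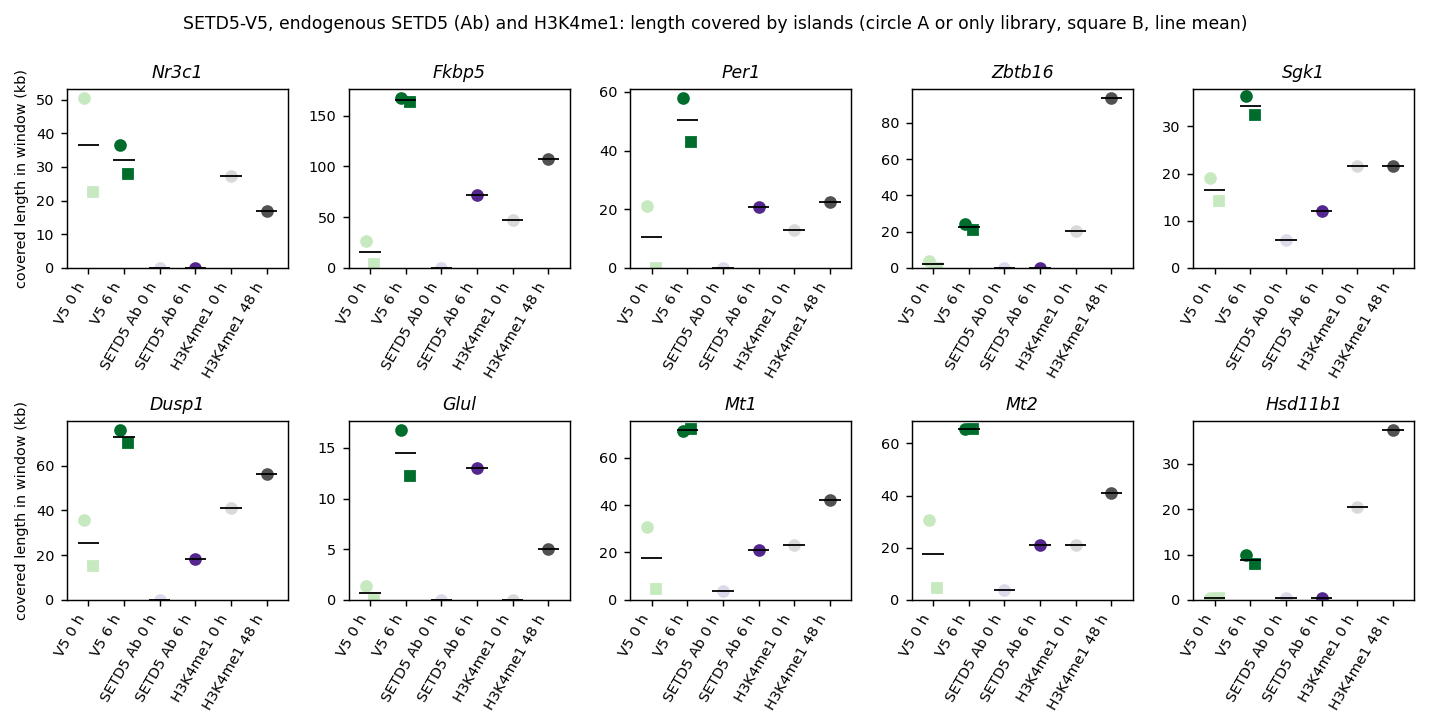
Length covered by islands (kb, vertical axis, 1 scale per gene) of SETD5-V5 and endogenous SETD5 (SETD5 Ab) at 0 h and 6 h and of H3K4me1 at 0 h and 48 h. Circles are replicate A or the only library, squares replicate B and lines the means. SETD5-V5 lies higher at 6 h than at 0 h in both replicates at 9 genes, and endogenous SETD5 has no island at Nr3c1 and Zbtb16 at either time.

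The bases that had gained H3K27ac at 48 h were compared with SETD5-V5 at 6 h. At Dusp1, Mt1 and Mt2 100% of them lay in islands of both SETD5-V5 libraries, and at Fkbp5 97.8% and at Per1 80% did. Over the genome it was 36.5%. Nr3c1 had 54.2% and Glul 35.1%, while Zbtb16 had 2.92%, Hsd11b1 2.26% and Sgk1 0%. The genes with the longest gains of H3K27ac, Zbtb16 and Fkbp5, thus differed widely in this measure. The share of the whole window that SETD5-V5 covered at 6 h also differed between genes. In replicates A and B it was 76.8% and 74.7% at Fkbp5, 73.9% and 67.9% at Dusp1 and 70.5% and 71.1% at Mt1. At Zbtb16 it was 8.66% and 7.39%, and at Hsd11b1 7.02% and 5.48%. No library of SETD5-V5 at 48 h was analysed here.

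Endogenous SETD5 had 1 library at each time, so a gene was called at 1.5-fold and no replicate error is known. Of the 10 genes, 8 had an endogenous SETD5 island at either time. At 6 h 7 of these 8 were higher, against 71.2% of the 5244 genes with an endogenous SETD5 island, and 0 were lower, against 14.1%. Fkbp5 had no island at 0 h and 72.2 kb in 9 islands at 6 h, and 0.305% of all genes had a larger difference. Mt1 had 3.6 and then 21.2 kb in 2 islands, the longer of which, 15.2 kb, lay over the start sites of Mt1 and Mt2. Per1 had 0 and then 20.8 kb, Dusp1 0 and then 18.4 kb, Glul 0 and then 13 kb, and Sgk1 5.8 and then 12 kb. Nr3c1 and Zbtb16 had no island at either time and Hsd11b1 the 0.4-kb stretch alone. As a share of its list Sgk1 was lower at 6 h. At start sites, 7 of 10 genes had an island at 6 h where 6.51% of all genes did, and 0 of 10 at 0 h where 2.05% did.

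H3K4me1, also with 1 library at each time, was at least 1.5-fold higher at 48 h at 7 genes, against 32.5% of all genes, and lower at 1, against 18.1%. Zbtb16 went from 20.2 kb in 10 islands to 94.0 kb in 36, and 0.018% of all genes had a larger difference. Fkbp5 went from 47.2 to 107 kb, Hsd11b1 from 20.4 to 37.6 kb and Mt1 from 23.2 to 42.0 kb. Glul, with no H3K4me1 island at 0 h, had 5.0 kb at 48 h. Nr3c1 was the gene called lower, from 27.2 to 17.0 kb, and Sgk1 had 21.6 kb at both times. Dusp1, at 41.0 and 56.2 kb, stayed under 1.5-fold.

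Not all of the later H3K27ac lay in H3K4me1 islands at 0 h. A base outside these islands may still have carried H3K4me1 below the caller's threshold. The labels name the SETD5 virus for H3K4me1, while the gained bases are those of empty-vector cells. Of the bases gained, 54% at Dusp1, 35.3% at Hsd11b1, 26.4% at Mt1 and Mt2 and 24.5% at Fkbp5 lay in H3K4me1 islands at 0 h, beside 27.4% over the genome. At Zbtb16 it was 6.52% and at Glul 0%. By 48 h H3K4me1 lay on 79.2% of the gained bases at Fkbp5 and 56.6% at Zbtb16, beside 52.4% over the genome.

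The response element matches were set against the islands. All 3 matches of the 15 letters, at Fkbp5 and Sgk1, lay in islands of both SETD5-V5 libraries at 6 h and of endogenous SETD5 at 6 h. The 2 at Fkbp5 shared 1 SETD5-V5 island in each replicate at 6 h, 149 and 118 kb long, so they are not separate cases for SETD5-V5. At 0 h SETD5-V5 had all 3 in replicate A and the Sgk1 match alone in replicate B, and endogenous SETD5 had none. Over the genome 639 such matches exist, of which 4, or 0.626%, lay in endogenous SETD5 islands at 6 h and 10.5% and 8.76% in SETD5-V5 islands at 6 h, so the members held 3 of the 4. In H3K27ac islands lay 5.16% and 4.38% of the 639 at 0 h in empty-vector cells, 9.70% and 9.08% at 48 h, and 11% and 11.3% in SETD5 cells at 48 h.

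Of the other 49 looser matches in the windows, 19 lay in H3K27ac of both empty-vector libraries at 0 h and 30 at 48 h, and 10 lay in no island of any list. Of the 30 in both empty-vector libraries at 48 h, 10 were in neither at 0 h, at Fkbp5, Zbtb16, Sgk1, Glul, Mt1 and Hsd11b1. Of these 10 gained matches, 8 were in both SETD5 libraries at 48 h and 7 in both SETD5-V5 libraries at 6 h. Several of the 7 were at Fkbp5, where SETD5-V5 covered 76.8% and 74.7% of the window at 6 h. All told, 30 of the 49 were in both SETD5-V5 libraries at 6 h. Of all looser matches in the genome, 5.24% and 4.36% lay in H3K27ac of empty-vector replicates A and B at 0 h. At 48 h it was 6.6% and 6.15%, and for SETD5-V5 at 6 h 9.24% and 6.87%. No such share was computed for the gained matches. Islands of endogenous SETD5 held 1 of the 49 at 0 h and 13 at 6 h, where 0.346% and 0.971% of all looser matches in the genome lay in these lists. The match held at 0 h lay in the 0.4-kb stretch of Hsd11b1 found in every list, and it was also among the 13 at 6 h. The matches shown in introns of Per1 and the nearer of those upstream of Mt1 lay in H3K27ac in all 8 libraries and in endogenous SETD5 at 6 h. At Nr3c1 2 looser matches were found, neither in an island of any list.

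A list of 32 other genes of the pathway was also chosen with earlier results of these data known. Of these 32, 22 were called higher and 6 lower for H3K27ac at 48 h in empty-vector cells, against 40.1% and 23.3% of all genes. Their median difference was 11.6 kb. The 20 further responsive genes gave 16 of the higher calls and 3 of the lower ones, while the 9 partners and hormone enzymes gave 4 and 2. Among them Ddit4, an inhibitor of mTOR signalling, went from 20.7 and 17.1 kb to 66.9 and 67.5 kb. Tsc22d3, which encodes the anti-inflammatory protein GILZ, went from 10.8 and 10.0 kb to 54.8 and 56.8 kb. Nr3c2, the mineralocorticoid receptor gene, went from 25.4 and 19.6 kb to 11.8 and 15.4 kb, and the cochaperone gene Stip1 from 32.3 and 29.3 kb to 27.2 and 23.4 kb.

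In SETD5 cells 21 of the 32 were called higher and 5 lower at 48 h, against 31.9% and 30.6% of all genes, with Tsc22d3 at 13 and 10.4 and then 59.4 and 63.8 kb, and Ddit4 at 18.3 and 24.1 and then 56.7 and 63.7 kb. Between the vectors at 48 h, 14 were lower in SETD5 cells and 8 higher, against 33.4% and 22.6% of all genes. Irs2, an insulin receptor substrate, had 70.0 and 64.2 kb with the empty vector and 33.4 and 42.0 kb with SETD5, and Klf15, a transcription factor, 48.8 and 45.8 against 33.8 and 28.4 kb. Ncoa3, a coactivator of nuclear receptors, had 24 and 25.6 against 50.2 and 57 kb, and Nr3c2 11.8 and 15.4 against 26.8 and 32.6 kb. At 0 h 9 were higher in SETD5 cells and 3 lower, against 25.1% and 14.3% of all genes. Nr3c2, at 25.4 and 19.6 against 38.8 and 35.6 kb, and Ncoa3 were among the higher ones. Nfkbia, an inhibitor of NF-kappaB, had 19.8 and 18.4 kb with the empty vector and 15 and 17.6 kb with SETD5 at 0 h, and the coactivator gene Ncoa2 6.0 and 5.8 against 4.0 and 5.2 kb.

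For SETD5-V5 22 of the 32 were called higher at 6 h and 0 lower, against 56.4% and 1.31% of all genes. Irs2 went from 34.2 and 0 kb to 68.6 and 60.6 kb, and Errfi1, a feedback inhibitor of the EGF receptor, from 14 and 0 kb to 54.8 and 43.6 kb. For endogenous SETD5 18 of the 32 had an island, of which 16 were higher and 1, Nr3c2, lower, against 71.2% and 14.1% of all genes with an island. For H3K4me1 16 of the 32 were higher and 3 lower, against 32.5% and 18.1%. The coactivators had no endogenous SETD5 island at either time.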

How the data were processed

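ChIP-seq island lists of 16 libraries were used. Per the study's methods, the authors aligned reads to mm9 (ELAND or Bowtie2) and called islands library by library with SICER, allowing wider gaps for SETD5 than for histone marks. The smallest gap left between islands was 600 bp in the histone lists and 800 bp in those of SETD5. The deposited lists give position and the authors' score, used here to rank islands within a list. The lists hold no read counts, so depth is unknown per island and no interval or count test was computed. A region below the caller's threshold is missing from a list, which does not show that it had no signal. No island started past the end of its chromosome in NCBIM37, the genome used here, with genes of the GENCODE M1 annotation. The members and gene lists were chosen with earlier results of these data known.

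Groups came from the labels. Cover was computed with Python 3.11.15 and numpy 2.4.6 and checked on simulated lists. With 2 libraries a group, a gene was called where both libraries lay above both of the other group, and with 1 at a fold of 1.5. The background is the same call over all protein-coding genes with an island. The rank of an island is the percent of its list with a higher score. All 10 members are named, and of 32 further pathway genes the 2 with the largest difference per direction. For each member the longest induced or lost region could be named, and each one at a start site. Other windows, island subsets, counts, scalings, folds, replicates left out and replicate blocks were tried. Chromosome M was left out. Of 30 cell type markers, 29 were matched to the annotation.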

Additional observations from a re-analysis of the deposited data

How the results depend on the processing

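Of 168 counts recomputed under an alternative, 136 stayed within 1.5 times the reported count and 32 did not, and of 678 values of single genes 564 kept direction and call, 72 lost the call, 24 gained one and 18 turned direction, apart from leaving out replicates. Where a change is given below, the cause was not tested. The paper gives the total reads of each library, which were not used here. They were higher in every H3K27ac library of SETD5 cells than in every empty-vector one. For SETD5-V5 they were higher at 6 h than at 0 h. Whether this changed the cover was not tested. With 2 libraries a group, a call rests on their order alone.

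With the gene body and 10 kb on either side, the members lower at 48 h numbered 0 in empty-vector and 1 in SETD5 cells, Nr3c1 was 0.5 and 4.4 kb higher, and 1 member was higher in SETD5 than in empty-vector cells at 0 h. With 100 kb, 1 member was lower at 48 h in SETD5 cells, 4 were higher in SETD5 cells at 0 h, and 0 were lower for H3K4me1. Among islands above the median score, 1 member was lower at 48 h in SETD5 cells, 1 was higher in SETD5 cells at 0 h and 2 at 48 h, where Nr3c1 was 2 kb higher, 3 regions were lost, and 5 members had H3K4me1 at a start site at 48 h. With equal numbers of islands per list, 1 member was lower at 48 h in SETD5 cells, 1 higher in SETD5 cells at 0 h, and 1 lower for SETD5-V5. With cover divided by the total of each list, SETD5 cells had 4 members lower at 0 h and 1 higher at 48 h, 2 members were lower for SETD5-V5 and 1 for endogenous SETD5, and Sgk1 differed by -110 and -34.5 bases per Mb of cover for these. With a further minimum of 1.5 times, 0 members were lower at 48 h with either vector, 0 higher and 0 lower in SETD5 cells at 0 h, and 1 lower at 48 h.

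With the number of islands in place of cover, at 48 h against 0 h Nr3c1 differed by 0.5, Fkbp5 by -2 and Per1 by -1 islands in empty-vector cells, and Fkbp5 by -2.5 and Per1 by -1.5 in SETD5 cells, where 5 members were higher. Between the vectors at 0 h, 0 members were higher and 0 lower, with Nr3c1 at 1.5 and Per1 at 0.5. At 48 h 3 were higher in SETD5 cells and 1 lower, with Fkbp5 at 1, Zbtb16 at 4.5, Mt1 at 2, Mt2 at 1.5, Irs2 at 3.5 and Klf15 at 3.5. For SETD5-V5 and for H3K4me1 3 members were higher, and 0 lower for H3K4me1.

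Leaving out either replicate, with calls at 1.5 times, gave 7 to 7 members higher and 0 to 0 lower at 48 h in empty-vector cells, and 5 to 7 higher and 0 to 0 lower in SETD5 cells. Without replicate A or B, SETD5 cells had 0 to 0 members higher and 0 to 2 lower at 0 h, and 0 to 0 higher and 1 to 1 lower at 48 h. SETD5-V5 had 9 to 9 higher and 0 to 0 lower. Induced regions numbered 29 to 33, of which 23 to 27 were in the SETD5 libraries at 48 h, and lost regions 7 to 8.

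The letters A and B did not pair the libraries by any label. The correlation over genes of the A minus B differences was 0.33 between the times in empty-vector cells, 0.23 in SETD5 cells and 0.49 for SETD5-V5, and -0.41 and -0.021 between the vectors at 0 h and 48 h. With the letter as a replicate block, the calls of members were the same as reported, 8 higher and 1 lower in empty-vector cells among them. A crossed pairing between the vectors at 0 h, chosen after seeing the data, gave 3 members higher and 4 lower.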
